A study of Mus musculus with 8 samples.

Results

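The cell cycle and DNA replication genes are a set of 35 named genes whose products drive a cell from the end of its resting phase through the copying of its DNA and into division. They were chosen by name, with earlier results of these data known. A gene counted as measured where the array's annotation gave it a probe set naming that gene and no other, and this held for 32 of the 35 genes, out of 30712 genes measured in all. Cyclin D1 (Ccnd1) and the helicase subunit Mcm7 are not analysed here because their only probe sets also name microRNA genes (Mir3962 for Ccnd1, Mir25 and Mir93 for Mcm7). Cyclin B1 (Ccnb1) is not analysed here either, since no probe set listed in the annotation names it. Each of the 32 genes had 1 probe set.

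The livers came from male C57BL/6 mice fed a high fat diet for 13 weeks, as a model of high blood cholesterol, and RNA of each was hybridised to an Affymetrix mouse array. The 4 anti-miR-128-3p livers came from mice given 5 injections into the peritoneal cavity of an inhibitor of the microRNA miR-128-3p. The 4 control livers came from mice on the same diet given as many control injections. The question is how liver transcripts respond to the inhibitor on this diet. In 1 label the injected agent is given as miR-128-3p, not as its inhibitor. The sample titles and the design name the inhibitor, and the groups follow the titles. The control is called a vehicle in 1 label and a control in others, so its content is not certain. The labels give no age, do not say outright that each array is 1 mouse, and give no batch, so the p-values measure the spread between these samples, which may be partly technical.

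In most liver cells of an adult animal the cell cycle is at rest. When a cell enters it, D- and E-type cyclins and E2F transcription factors switch on a first wave of genes, which license replication origins and make deoxynucleotides, and a second wave, read from promoters that carry CCAAT and CHR elements, builds the spindle and the chromosome segregation machinery. Hepatocytes of mice often copy their DNA without dividing and become polyploid, and the atypical repressors E2F7 and E2F8 are known to promote this in mouse liver. MicroRNAs such as miR-128-3p pair with messenger RNAs through their seed, bases 2 to 8, which is in capitals in the mature sequence, shown here because it is the RNA that the inhibitor is directed at. RefSeq (GRCm38.p6) gives the same 21 bases for both genes that encode it, at chr1:128202404-128202424 on the plus strand and at chr9:112118644-112118664 on the minus strand.
miR-128-3p: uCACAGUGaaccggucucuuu

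No cell cycle gene passed the test of a difference between the anti-miR-128-3p and the control livers by limma, a linear model with moderated variances, and most estimated differences were small. Of the 32 genes measured, 9 were higher and 23 lower by their log2 difference (anti-miR-128-3p minus control), with a median of -0.03 against -0.0017 over all genes, and 24 of the 32 differed by less than 0.1. The direction was uneven across the cycle. The 16 genes of the G1 phase, replication and nucleotide supply split into 8 higher and 8 lower (median 0.01), whereas of the 16 genes of mitosis 1 was higher and 15 lower (median -0.09). That lean rested on 1 liver, control replicate 4, in which 15 of the 16 mitotic genes had their highest signal of all 8 livers. Without that liver, 15 of the 16 mitotic genes were higher in the anti-miR-128-3p livers and 1 was lower (median 0.06), and none of these differences passed the test either. Leaving out the control liver that was highest moves these differences upward by that choice, so the count is a description only. With all 8 livers 49.1% of all genes were higher, and 47.5% of all genes were higher without that liver. So were 15 of 15 markers of Kupffer cells and macrophages (median 0.58), 6 of 6 of haematopoietic cells of any kind (0.26) and 14 of 16 of lymphocytes and NK cells (0.11). With all 8 livers these counts were already 13, 6 and 11. In the other lists, 8 of 11 stellate cell, 5 of 9 erythroid and 4 of 12 hepatocyte markers were higher without that liver. The same held for 2 of 15 neutrophil markers (median -0.27), 2 of 11 endothelial, 1 of 5 megakaryocyte and 0 of 6 cholangiocyte markers. The part of these cells in the direction of the mitotic genes was not tested.

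At a Benjamini-Hochberg adjusted p of 0.05, limma called 0 of the 32 genes and 0% of all genes (0 of 30712). At an unadjusted p under 0.05 there were 0 of the 32 against 7.63% of all genes (4.26% higher and 3.37% lower). The groups did not overlap for 0 of the 32 genes, against 4.42% of all genes. Adjusted p-values of the 32 ran from 0.718 for E2f8 to 0.997 for Cdc6. The test left room for differences: the 95% interval around the Mki67 difference was 0.96 wide on each side, so a large change in either direction could not be told from the spread between livers. Liver RNA is a mixture, and fewer or more dividing cells cannot be told apart from less or more of these RNAs per cell.

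The medians of the 8 arrays over all genes ran from 5.04 to 5.12. The means of the 32 genes over the 8 livers lay between 3.13 and 7.12 on the log2 scale, and the negative control rows of the arrays had a median of 4.38. The quartiles of those rows were 3.41 and 5.52. The means of 26 genes lay above the median, which does not show that they clear background. Many of them lay under the upper quartile, Mki67 among them (group means of 5.36 and 5.45). The 6 genes below the median were Ccne2, Top2a, Kif11, Bub1, Bub1b and Cdc20. Array signals near background compress differences.

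**Figure D1:**
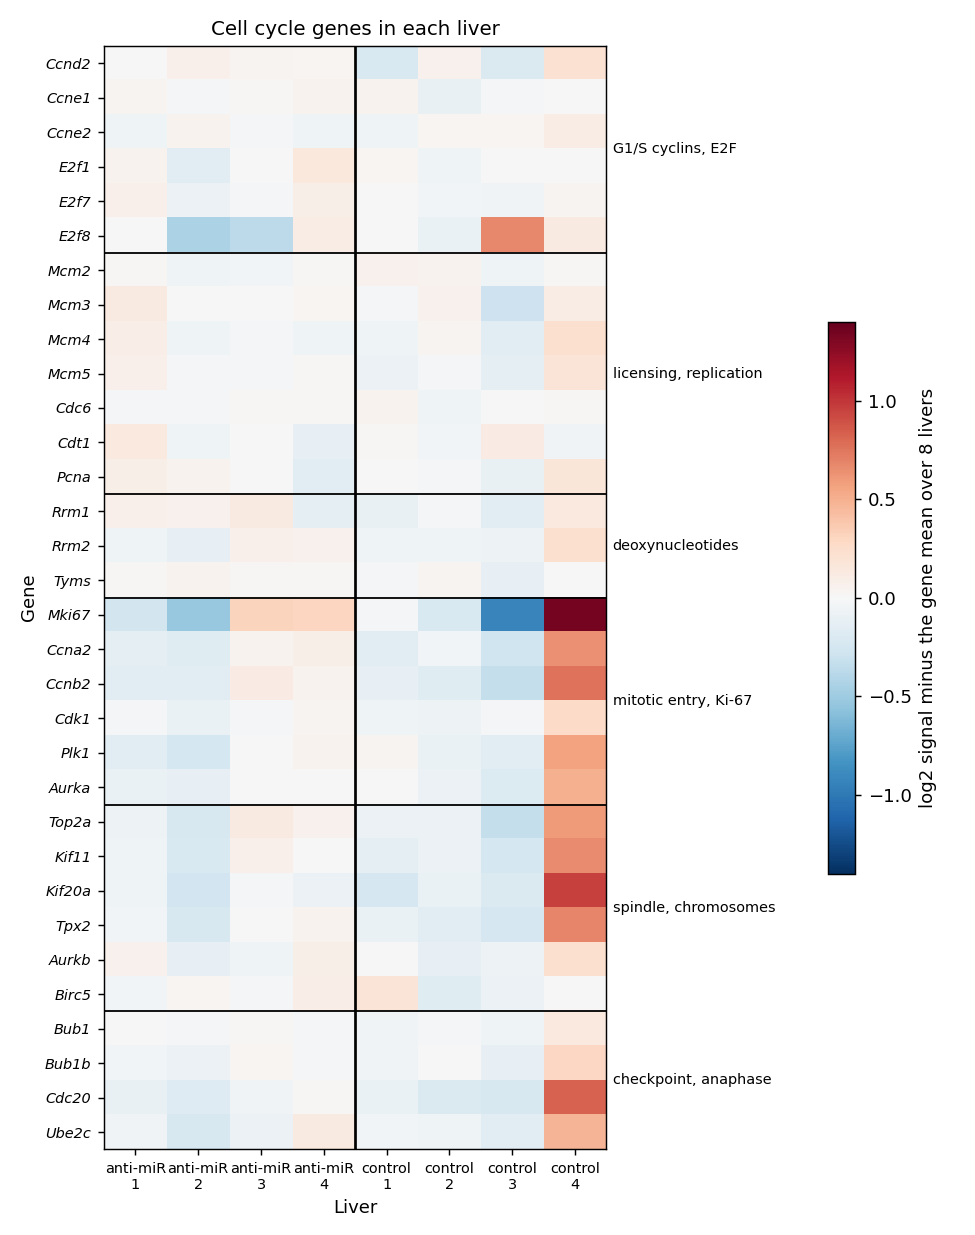
Heat map of the 32 genes (down the page, in order of their roles) in the 4 anti-miR-128-3p livers and the 4 control livers. Colour is the log2 signal minus the gene's mean over the 8 livers. The last column, control replicate 4, is the highest for 22 of the 32 genes, among them 15 of the 16 mitotic genes.

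Among the genes of mitotic entry, Mki67 varied most. It encodes Ki-67, the protein that coats chromosomes in dividing cells and is the usual marker of proliferation. Its log2 signal was 5.14, 4.88, 5.72 and 5.71 in the anti-miR-128-3p livers, against 5.38, 5.19, 4.48 and 6.74 in the control livers. The control livers held both the highest and the lowest value, and the anti-miR-128-3p livers lay between them. The means were 5.36 ± 0.42 in anti-miR-128-3p livers and 5.45 ± 0.94 in control livers (SD, n = 4 each), a log2 difference of -0.09 ± 0.43 (limma SE; 95% interval -1.05 to 0.88; adjusted p = 0.985). Control replicate 4 stood 1.53 above the mean of the other 7 livers on the log2 scale, which is 2.88-fold and the 18th largest such excess among the 30712 genes.

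Ccnb2, a B-type cyclin that activates Cdk1 at mitotic entry, had 5.11, 5.09, 5.37 and 5.31 in the anti-miR-128-3p livers, against 5.14, 5.08, 4.92 and 6.01 in the control livers. Ccna2, the cyclin of S phase and G2, had 4.36, 4.32, 4.54 and 4.57 in the anti-miR-128-3p livers, against 4.34, 4.45, 4.21 and 5.13 in the control livers. In both genes control replicate 4 was the highest liver and control replicate 3 the lowest. Their log2 differences were -0.07 ± 0.21 for Ccnb2 and -0.08 ± 0.18 for Ccna2 (limma adjusted p of 0.979 and 0.966).

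Plk1, the Polo-like kinase that triggers mitotic entry and separates the spindle poles, had the smallest p among the entry genes. It stood at 5.56, 5.46, 5.71 and 5.75 in the anti-miR-128-3p livers, against 5.74, 5.62, 5.55 and 6.28 in the control livers. The anti-miR-128-3p livers reached from just below to just above control replicates 1 to 3, and control replicate 4 lay clear of all of them. The log2 difference was -0.18 ± 0.15 (limma 95% interval -0.52 to 0.16, adjusted p = 0.848). The centrosomal kinase Aurka and Cdk1, the kinase partner of the mitotic cyclins, were also highest in control replicate 4, at 5.69 and 4.73, against at most 5.19 and 4.50 in any other liver.

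The spindle genes followed the same liver. Kif20a, a kinesin of the central spindle that is needed for cytokinesis, had 4.75, 4.54, 4.79 and 4.73 in the anti-miR-128-3p livers, against 4.57, 4.72, 4.61 and 5.77 in the control livers. The 7 livers other than control replicate 4 spanned 0.25, and control replicate 4 exceeded their mean by 1.10 (2.14-fold). The log2 difference between the groups was -0.22 ± 0.24 (limma 95% interval -0.77 to 0.33, adjusted p = 0.896). Tpx2, which nucleates spindle microtubules and activates Aurora A, had 4.57, 4.39, 4.61 and 4.67 in the anti-miR-128-3p livers, against 4.52, 4.47, 4.38 and 5.30 in the control livers.

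Kif11, the kinesin that pushes the spindle poles apart, had 4.10, 3.94, 4.23 and 4.16 in the anti-miR-128-3p livers, against 4.03, 4.08, 3.91 and 4.83 in the control livers. Top2a, the topoisomerase that untangles sister chromosomes, had 4.01, 3.86, 4.20 and 4.14 in the anti-miR-128-3p livers, against 4.00, 4.00, 3.75 and 4.68 in the control livers. Outside control replicate 4, both genes were highest in anti-miR-128-3p replicate 3 and lowest in control replicate 3. Aurkb, the kinase of the chromosomal passenger complex, moved less, with 4.89 in control replicate 4 and 4.54 to 4.74 in the others. Its partner Birc5 (survivin) was the exception among the 16 mitotic genes. Birc5 had 5.28, 5.35, 5.30 and 5.42 in the anti-miR-128-3p livers, against 5.50, 5.15, 5.24 and 5.32 in the control livers, so that control replicate 1 was highest and control replicate 4 lay in the middle.

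Of the genes that control anaphase, Cdc20, the activator of the anaphase-promoting complex, had 4.03, 3.96, 4.09 and 4.15 in the anti-miR-128-3p livers, against 4.05, 3.94, 3.92 and 4.97 in the control livers. The complex's ubiquitin-conjugating enzyme Ube2c, with the smallest p of this group, had 5.64, 5.48, 5.61 and 5.83 in the anti-miR-128-3p livers, against 5.66, 5.63, 5.55 and 6.17 in the control livers (log2 difference -0.11 ± 0.13, limma adjusted p = 0.904). Again control replicate 4 was above all other livers, by 1.93-fold over their mean for Cdc20 and 1.45-fold for Ube2c. The spindle checkpoint genes Bub1 and Bub1b, dim on these arrays, were highest there too, at 3.27 and 4.03 against at most 3.14 and 3.76 elsewhere.

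**Figure D2:**
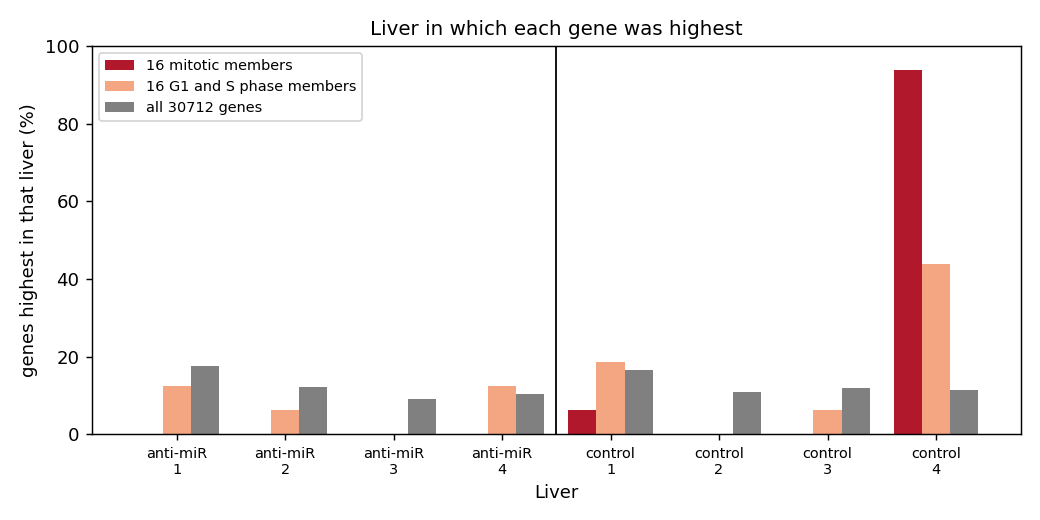
Share of genes (vertical axis, percent) whose highest signal of the 8 livers fell in each liver, for the 16 mitotic genes, the 16 genes of G1 and S phase, and all 30712 genes. Control replicate 4 held the highest signal of 93.8% of the mitotic genes and of 11.4% of all genes.

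Counted over the whole set, control replicate 4 was the highest of the 8 livers for 22 of the 32 genes, against 11.4% of all genes. The count was 15 of 16 in mitosis (93.8%) and 7 of 16 in G1 and S phase (43.8%). In that liver 11 of the 32 genes, all mitotic, lay more than 0.5 above the mean of the other 7 on the log2 scale, as did 0.925% of all genes. In no other liver was a mitotic gene that far above the rest, and among the G1 and S phase genes 1 was, E2f8 in control replicate 3. The median excess in control replicate 4 was 0.67 over the mitotic genes, 0.12 over the G1 and S phase genes and -0.01 over all genes. Of the 100 genes with the widest gap between control replicate 4 and the next highest liver, 10 were mitotic genes of the set, and the same count in each of the other livers was 0. These are descriptions of 1 liver that was singled out after its values were seen, and they carry no test.

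The SD over the 4 control livers exceeded that over the 4 anti-miR-128-3p livers for 16 of the 16 mitotic genes and 13 of the 16 others, against 50.3% of all genes. Without control replicate 4 this held for 5 of the 16 mitotic genes and 10 of the 16 others, against 46.0% of all genes. The median range over the 8 livers, highest minus lowest, was 0.87 for the mitotic genes, 0.29 for the G1 and S phase genes and 0.29 for all genes. Without control replicate 4 it was 0.29, 0.22 and 0.28. That liver was left out because it was extreme for the mitotic genes, which narrows their spread by that choice. The SD counts and ranges without it are therefore descriptions only. Within the remaining 7 livers the mitotic genes still kept an order: 8 were highest in anti-miR-128-3p replicate 4, 7 in anti-miR-128-3p replicate 3 and 1 in control replicate 1, while 10 were lowest in control replicate 3, 5 in anti-miR-128-3p replicate 2 and 1 in control replicate 2.

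Markers of liver and blood cells were read beside these results. The mean centred signal of the 16 mitotic genes was -0.08, -0.18, 0.03 and 0.05 in the anti-miR-128-3p livers, against -0.06, -0.10, -0.23 and 0.56 in the control livers. Over 12 hepatocyte markers it stayed between -0.06 and 0.05 in all 8 livers, and albumin (Alb) between 13.9 and 14.0 log2 signal. Over 16 lymphocyte and NK cell markers it was 0.19 in control replicate 4 and -0.16 to 0.10 elsewhere, with 6 of the 16 highest there. The T cell receptor chain gene Cd3e was at 7.05 in control replicate 4 and 5.50 to 6.27 in the other livers, and the cytotoxic granule gene Nkg7 at 6.62 against 5.70 to 6.26. Cd3g, Cd4, Cd8a and Gzma were also highest in that liver, at 4.65, 5.58, 5.50 and 4.58. In the other livers they reached at most 4.44, 5.29, 5.23 and 4.15. Cd3g and Gzma were dim, near the median of 4.38 of the negative control rows. The remaining markers of this list were not highest in control replicate 4. Among them Cd3d, of the same receptor complex as Cd3e, was at 4.88 there, within the 4.77 to 5.04 of the others.

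Over 11 endothelial markers the mean centred signal was 0.31 in control replicate 4, where 3 were highest, and also 0.31 in control replicate 2, where 7 were highest. Over the 15 neutrophil and granulocyte precursor markers it was -0.28 in control replicate 4, with 0 highest there, and over 9 erythroid precursor markers -0.09, also with 0. For the Kupffer cell and macrophage markers it was 0.06 (3 of 15 highest) and for 6 genes of haematopoietic cells of any kind 0.15 (1 of 6). Of 11 stellate cell markers 2 were highest in that liver, and of the 6 cholangiocyte and 5 megakaryocyte markers 0. Control replicate 3, the lowest liver for 10 of the 16 mitotic genes, was also the lowest for 12 of the 15 Kupffer cell markers and 5 of the 6 haematopoietic ones. The 13 neutrophil markers highest in control replicate 1 and the 8 of 11 stellate cell markers highest in anti-miR-128-3p replicate 3 stood apart in livers other than control replicate 4. The part of these cells in the mitotic signal of single livers was not tested either.

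**Figure D3:**
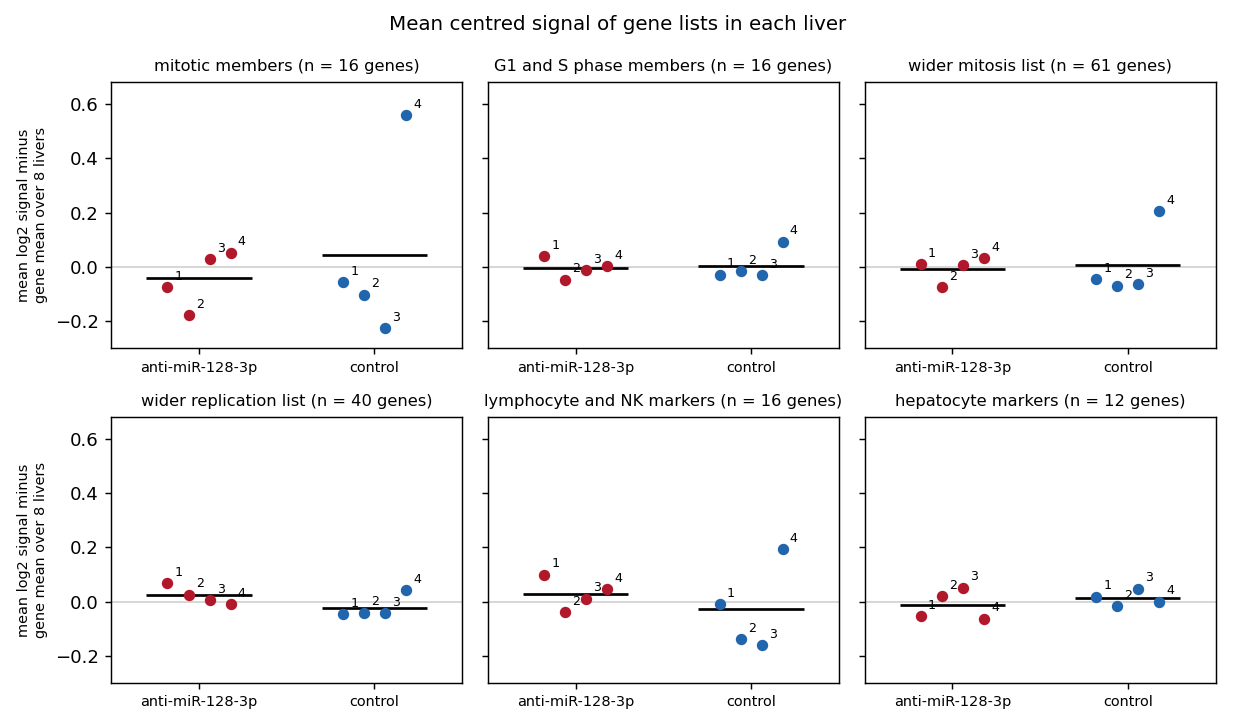
Mean over the genes of a list of the log2 signal minus the gene's mean over the 8 livers (vertical axis), for 6 lists. Points are livers, numbered by replicate, with the anti-miR-128-3p livers at left and the control livers at right, and bars are group means. Control replicate 4 is at 0.56 for the mitotic genes and at -0.00065 for the hepatocyte markers.

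The promoters of these genes are shown because 15 of the 16 mitotic genes were highest in the same liver. The stretches printed are the 250 bases before the RefSeq start (GRCm38.p6, sense strand of the gene) of 3 of the 4 genes with the widest range over the 8 livers. Mki67 lies at chr7:135716380-135716629, E2f8 at chr7:48881597-48881846 and Ccnb2 at chr9:70421555-70421804, all on the minus strand. Capitals mark matches on either strand to CCAAT, the box bound by NF-Y, and to the CHR element read by the DREAM and B-MYB complexes. The CHR element was searched as TTTGAA and also in the form TTCGAA. Words taken as E2F-like are marked too, namely TTCCCGC with the related word TTGGCGC, together with the words TTCGCGC and, as the last one, TTGCCGC.
Mki67: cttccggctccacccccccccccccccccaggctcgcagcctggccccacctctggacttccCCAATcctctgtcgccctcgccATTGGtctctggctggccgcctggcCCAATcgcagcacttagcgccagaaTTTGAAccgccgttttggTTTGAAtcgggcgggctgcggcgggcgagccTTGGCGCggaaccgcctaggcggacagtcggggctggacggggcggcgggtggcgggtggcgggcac
E2f8: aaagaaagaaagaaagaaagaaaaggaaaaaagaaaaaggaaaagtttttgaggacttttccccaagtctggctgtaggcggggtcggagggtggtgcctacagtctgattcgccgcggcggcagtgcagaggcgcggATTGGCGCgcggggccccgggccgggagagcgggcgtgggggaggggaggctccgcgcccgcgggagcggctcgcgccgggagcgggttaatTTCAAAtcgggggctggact
Ccnb2: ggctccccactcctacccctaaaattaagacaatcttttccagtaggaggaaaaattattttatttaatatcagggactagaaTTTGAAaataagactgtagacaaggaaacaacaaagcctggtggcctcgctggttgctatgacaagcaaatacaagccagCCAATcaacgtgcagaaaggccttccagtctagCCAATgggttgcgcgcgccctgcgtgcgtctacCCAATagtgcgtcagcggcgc

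The Mki67 stretch held 3 CCAAT, 2 CHR and 1 E2F-like match. That of Ccnb2 held 3 CCAAT and 1 CHR match and none that was E2F-like. That of E2f8 held 1 of each, and there the CCAAT match on the opposite strand shares bases with the E2F-like one.

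Windows from 250 bases before to 50 after the start were found for 25 of the 32 genes. None was found for the mitotic genes Kif20a, Ccna2, Tpx2 and Aurkb, nor for Ccnd2, Ccne2 and Mcm4. A CHR match lay in 11 of the 12 mitotic windows (91.7%) and in 2 of the 13 G1 and S phase windows (15.4%), against 19.2% of all 32851 windows in the table. CCAAT lay in 91.7% of the mitotic and 61.5% of the G1 and S phase windows, against 37.4% of all. The E2F-like words had the opposite order, in 2 of 12 mitotic windows (16.7%) and 8 of 13 others (61.5%), against 9.57% of all. The 2 G1 and S phase genes with a CHR match were E2f8 and Mcm2, neither of which was highest in control replicate 4. The mitotic window without a CHR match was that of Birc5. It held no CCAAT or E2F-like match either, and Birc5 was not highest in that liver. A link between the matches and the signal in that liver was not tested. A match says only that the letters are there.

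Of the 6 measured genes of G1 and the G1/S step, 2 (Ccnd2 and Ccne2) were highest in control replicate 4. E2f8, an atypical E2F that represses transcription, had the smallest p of the 32 genes. Its log2 signal was 7.13, 6.67, 6.75 and 7.22 in the anti-miR-128-3p livers, against 7.11, 7.03, 7.79 and 7.24 in the control livers. The groups overlapped: anti-miR-128-3p replicates 2 and 3 lay below every control liver, whereas replicates 1 and 4 lay among them. The means were 6.94 ± 0.27 in anti-miR-128-3p livers and 7.29 ± 0.34 in control livers (SD, n = 4 each), a log2 difference of -0.35 ± 0.18 (limma 95% interval -0.76 to 0.07, unadjusted p = 0.0889, adjusted p = 0.718). E2f8 was highest in control replicate 3, the liver in which Mki67 was lowest, and next highest in control replicate 4, where Mki67 was highest. The E2f8 difference was -0.18 without control replicate 3.

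E2f7, the other atypical E2F, varied far less, with 4.48, 4.32, 4.39 and 4.50 in the anti-miR-128-3p livers, against 4.40, 4.38, 4.36 and 4.44 in the control livers. E2f1, the activating E2F, had 5.90, 5.69, 5.85 and 5.99 in the anti-miR-128-3p livers, against 5.87, 5.78, 5.85 and 5.84 in the control livers. In both the anti-miR-128-3p livers spread around the control livers on either side. Ccnd2, a D-type cyclin that starts the G1 phase with Cdk4 and Cdk6, had 6.74, 6.81, 6.78 and 6.77 in the anti-miR-128-3p livers, against 6.53, 6.79, 6.54 and 6.95 in the control livers. The anti-miR-128-3p values were tightly grouped and fell inside the control range (log2 difference 0.07 ± 0.09, limma adjusted p = 0.918). The E-type cyclins, which drive entry into S phase, varied little, with a range over the 8 livers of 0.16 for Ccne1 and 0.17 for Ccne2.

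The 7 licensing and replication genes had the same extreme livers as the mitotic genes, with smaller differences. Their mean centred signal was highest in control replicate 4 (0.09) and lowest in control replicate 3 (-0.09), against 0.56 and -0.23 for the mitotic genes. The Mcm proteins form the ring-shaped helicase that is loaded on origins. Mcm3, with the smallest p of this group, had 5.56, 5.44, 5.45 and 5.46 in the anti-miR-128-3p livers, against 5.41, 5.50, 5.16 and 5.54 in the control livers. Mcm5 had 5.21, 5.12, 5.12 and 5.15 in the anti-miR-128-3p livers, against 5.05, 5.10, 5.01 and 5.32 in the control livers. Mcm4 had 5.52, 5.36, 5.40 and 5.36 in the anti-miR-128-3p livers, against 5.36, 5.46, 5.27 and 5.64 in the control livers. Control replicate 3 was the lowest liver for these 3 subunits, and control replicate 4 was the highest for Mcm4 and Mcm5. Mcm2 did not share this and stayed between 5.82 and 5.95.

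The log2 differences of these subunits were 0.08 ± 0.08 for Mcm3, 0.03 ± 0.07 for Mcm5, -0.02 ± 0.08 for Mcm4 and -0.04 ± 0.05 for Mcm2 (limma, adjusted p of 0.892 or more). Cdc6 and Cdt1, the factors that load the helicase, differed by -0.0016 ± 0.042 and -0.018 ± 0.065, with ranges of 0.11 and 0.25 over the 8 livers. Pcna, the sliding clamp of the replication fork, had 6.55, 6.52, 6.47 and 6.31 in the anti-miR-128-3p livers, against 6.46, 6.46, 6.37 and 6.64 in the control livers. Its highest and lowest values were thus in control replicate 4 and anti-miR-128-3p replicate 4.

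The genes of deoxynucleotide supply were close to level. Tyms, thymidylate synthase, had 5.10, 5.13, 5.10 and 5.10 in the anti-miR-128-3p livers, against 5.06, 5.12, 4.97 and 5.08 in the control livers (log2 difference 0.05 ± 0.05, limma 95% interval -0.05 to 0.15, adjusted p = 0.857). Of the control livers, replicate 2 reached the anti-miR-128-3p values and the other 3 lay below them. Rrm2, the inducible subunit of ribonucleotide reductase, had 4.77, 4.72, 4.90 and 4.89 in the anti-miR-128-3p livers, against 4.77, 4.76, 4.76 and 5.05 in the control livers. Control replicate 4 was above all others and the other 3 control livers were nearly equal. The catalytic subunit Rrm1 was also highest in control replicate 4, at 6.09, with anti-miR-128-3p replicate 3 within 0.01 of it.

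**Figure D4:**
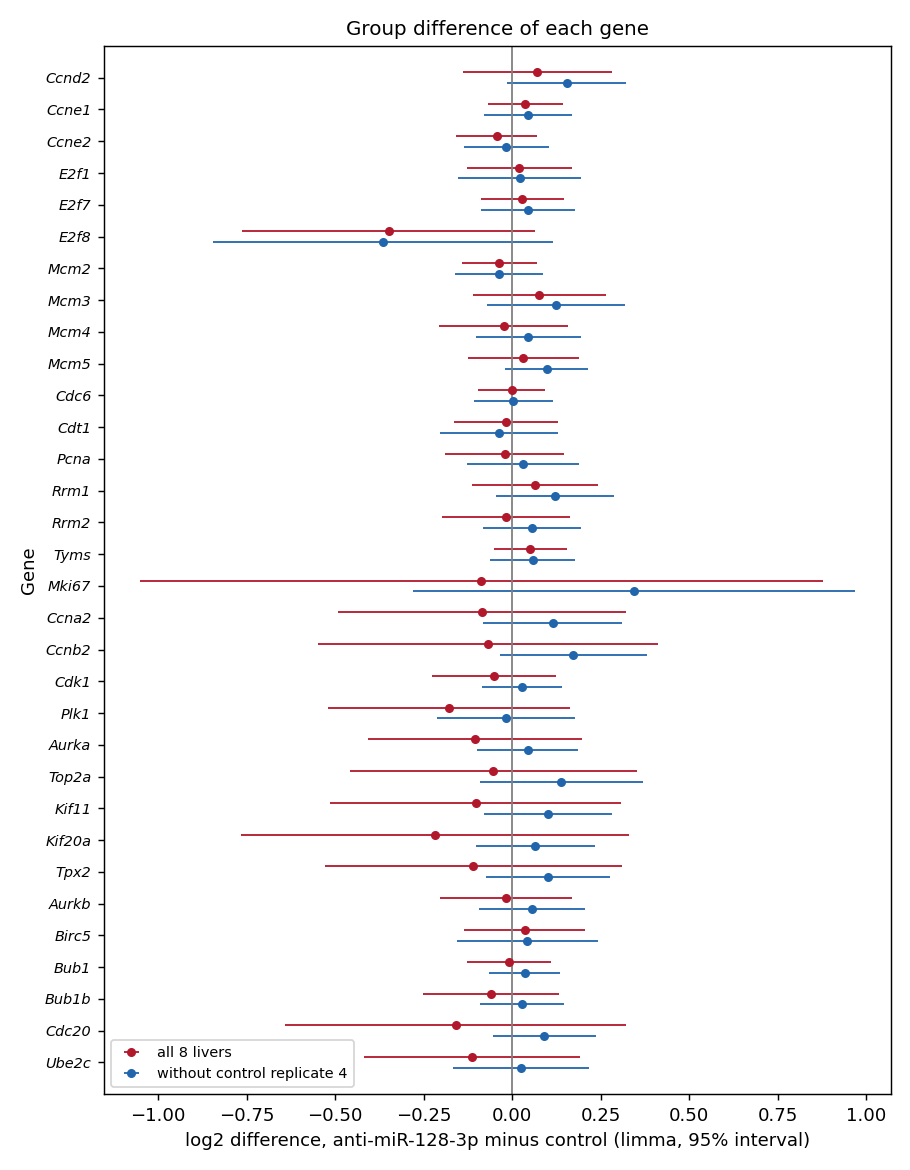
Log2 difference (horizontal axis, anti-miR-128-3p minus control) of each of the 32 genes with its 95% interval from limma, with all 8 livers and without control replicate 4. Every interval includes 0 in both, the intervals of Mki67 and Kif20a are the widest with all 8 livers, and most mitotic points cross to the positive side without control replicate 4.

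Without control replicate 4, 27 of the 32 genes were higher and 5 lower in the anti-miR-128-3p livers (median 0.05). Limma then called 0 of the 32 and 1 gene of all 30712 (0.00326%), 0 of the 32 had an unadjusted p under 0.05 (7.06% of all genes, 3.97% higher and 3.09% lower), and the groups did not overlap for 1 of the 32, Mcm5 (7.47% of all genes). Mcm5 was 0.10 higher (unadjusted p = 0.0895, adjusted p = 0.769). Mki67 was then 0.34 higher (95% interval -0.28 to 0.97), Ccnb2 0.17 higher (-0.04 to 0.38), Kif20a 0.07 higher (-0.10 to 0.23) and Cdc20 0.09 higher (-0.05 to 0.24). Plk1 was the mitotic gene left lower, by -0.02. E2f8 differed by -0.36 (-0.84 to 0.12). Control replicate 4 was left out because it was the extreme liver for these genes, so intervals without it are narrower by that choice and set no limit on a difference. The same choice moves upward the differences of genes that were highest there. Signs and counts of higher genes without that liver are therefore descriptions only.

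A wider list of 61 measured mitotic genes outside the set showed the same liver. Of these, 40 were highest in control replicate 4, with a median excess of 0.19 over the other 7 livers. Ect2, which directs the cytokinetic furrow, stood at 6.09 there and at 4.06 to 4.36 in the other 7 livers, 3.67-fold above their mean and the 7th largest excess of all genes. Ckap2, Prc1 and Hmmr, proteins of spindle microtubules, exceeded the mean of the others by 1.87-, 1.78- and 1.72-fold.

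Between the groups, 23 genes of the wider mitotic list were higher and 38 lower (median log2 difference -0.02), and without control replicate 4 it was 53 higher and 8 lower (median 0.04). The second count leans upward by the choice of the liver left out, which was the highest for 40 of the 61. None of the 61 genes passed an adjusted p of 0.05. By unadjusted p under 0.05 there was 1 of the 61, against 7.63% of all genes. It was Cks2, a small subunit of cyclin-dependent kinases. Cks2 had 7.37, 7.24, 7.13 and 7.31 in the anti-miR-128-3p livers, against 7.08, 7.12, 7.10 and 7.09 in the control livers. Every anti-miR-128-3p liver was above every control liver, and the groups did not overlap in 4.42% of all genes (log2 difference 0.17 ± 0.06, limma adjusted p = 0.514).

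Of 40 other measured genes of replication and S phase, 13 were highest in anti-miR-128-3p replicate 1 (32.5%, against 17.7% of all genes). In control replicate 4 it was 9 (22.5%, against 11.4% of all genes). By log2 difference, 30 of the 40 were higher and 10 lower in the anti-miR-128-3p livers (75%, median 0.04), against 49.1% of all genes higher. By limma 0 passed the adjusted threshold, and 4 of the 40 had an unadjusted p under 0.05, a share near the 7.63% of all genes, so their values are given as a description. Tk1, thymidine kinase, had 7.42, 7.59, 7.07 and 7.10 in the anti-miR-128-3p livers, against 6.76, 6.78, 7.04 and 7.08 in the control livers. The groups overlapped narrowly, anti-miR-128-3p replicate 3 lying just under control replicate 4 (log2 difference 0.38 ± 0.13, adjusted p = 0.538). Deoxycytidine kinase (Dck) and the repair gene Brca1 were 0.19 and 0.11 higher, and the helicase Mcm8 differed by -0.10. Brca1 (group means of 4.03 and 3.93) and Mcm8 (3.85 and 3.95) were dim, under the median of 4.38 of the negative control rows.

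Among 32 measured brakes of the cycle, pocket proteins and G1 kinases, 15 were higher and 17 lower (median -0.01), and by limma 0 passed the adjusted threshold. Control replicate 4 and anti-miR-128-3p replicate 4 were each the highest liver for 8 of them (25%, against 11.4% and 10.4% of all genes). The 1 gene of the 32 with an unadjusted p under 0.05, against 7.63% of all genes, was Lin37, a subunit of the DREAM complex that represses cell cycle genes in resting cells. Lin37 had 7.36, 7.45, 7.29 and 7.48 in the anti-miR-128-3p livers, against 7.65, 7.46, 7.69 and 7.80 in the control livers. Control replicate 2 lay within the anti-miR-128-3p range and the other 3 above it (log2 difference -0.25 ± 0.08, adjusted p = 0.466). Cdkn1a, the p21 inhibitor of cyclin-dependent kinases, was variable in both groups, at 8.39, 8.18, 9.89 and 9.07 in the anti-miR-128-3p livers, against 9.62, 8.91, 9.64 and 8.68 in the control livers.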

How the data were processed

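Liver RNA was measured on 8 arrays, each taken as 1 mouse. The deposited values are log2 signals made with RMA, which corrects background, normalizes quantiles across arrays and summarises probes, per the submitters' processing notes. The software that ran it and its annotation build are not named in the labels used here. The table holds no detection calls. Of 72688 rows, 6732 array control rows were left out. Of the other 65956 probe sets, the platform annotation lists 32750, and 31252 of these name exactly 1 gene, with symbols updated through a RefSeq table of GRCm38.p6. They gave 30712 genes. For the 416 genes with several probe sets, the one with the highest mean over the 8 arrays was used.

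Groups were compared by lmFit and eBayes of limma 3.58.1 under R 4.3.3 (two-sided, 4 against 4 livers, no covariate), with Benjamini-Hochberg adjustment over all 30712 genes and a threshold of 0.05. Differences are anti-miR-128-3p minus control on the log2 scale, given with limma's SE. The number of arrays limits the precision. Tables and plots were made with Python 3.11.15, pandas 2.3.3 and matplotlib 3.10.9. The fit was also run on simulated arrays with known changes, as a check of the code. Their noise was drawn separately for each gene, unlike genes that rise together in the same liver. The check therefore does not vouch for the tests of the cell cycle genes.

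The 32 measured genes and all lists of genes and markers were chosen with earlier results of these data known. Named genes are those with an unadjusted p under 0.05 or groups that do not overlap, the 10 of widest range and the one of smallest p in each role group. Up to 4 genes by p in each wider list and up to 3 by range in each marker list could be named, with Alb. Values of every other cell cycle gene were added. Ect2, Ckap2, Prc1, Hmmr, Cdkn1a, Cd3d, Cd3g, Cd4, Cd8a and Gzma, and the comparison of control replicate 4 with the other livers, were chosen after the values were seen.

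The deviations of livers that share a replicate number from their group means correlated at -0.03, -0.02, -0.08 and -0.12 over all genes. This gave no sign that the numbers pair the livers, though a weak pairing could be missed. Motifs were searched on both strands from 250 bases before to 50 after RefSeq starts. Alternatives were trended robust moderation, array weights, leaving out dim genes, averaging probe sets, quantile normalization, centring, a replicate block and leaving out each array.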

Additional observations from a re-analysis of the deposited data

Results flagged for a closer look

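For 5 of the 32 cell cycle genes, 1 liver lay far from the others of its group by Dixon's criterion for 4 samples (the gap to the nearest other liver over the whole range). In every case it was control replicate 4, as the highest of the control livers. Rrm2 was at 5.05 there (gap over range 0.979), Cdk1 at 4.73 (0.863), Kif20a at 5.77 (0.879), Tpx2 at 5.30 (0.843) and Cdc20 at 4.97 (0.876). The mean centred signal of the 16 genes of G1 and S phase was also set apart in that liver, at 0.093 (0.876). That of the 16 mitotic genes, at 0.56 in control replicate 4 and -0.23 to -0.06 in the other control livers, was not flagged. Chance flags about 1 in 20 groups, and 64 groups of single genes were examined, 4 livers each. Genes share livers, so these flags are not independent of each other. No anti-miR-128-3p liver was set apart for any of the 32 genes. Mki67, with the widest range of the 32, was not flagged, since its control livers were spread on both sides. The cause was not tested.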

How the results depend on the processing

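No setting brought a limma adjusted p of any of the 32 cell cycle genes under 0.05, the lowest being 0.580 with dim genes left out, and in each the count called was 0. Leaving out 1 liver at a time gave 0 to 1 gene called over all genes, 0 to 1 cell cycle gene whose groups did not overlap (Mcm5 without control replicate 4, Tyms without control replicate 2) and a median difference of -0.06 to 0.05. The median was -0.03 with the replicate number as a replicate block, which changed no call. The sign of single differences was not stable: 18 of the 32 changed it without control replicate 4. With each liver left out in turn, the log2 differences ran for Aurka -0.19 to 0.0435, Aurkb -0.0592 to 0.0558, Birc5 -0.0157 to 0.10, Bub1 -0.0315 to 0.0351, Bub1b -0.11 to 0.0284, Ccna2 -0.19 to 0.11, Ccnb2 -0.19 to 0.17, Cdc20 -0.26 to 0.0907, Cdc6 -0.0237 to 0.0131, Cdk1 -0.0849 to 0.0274, Cdt1 -0.0671 to 0.0171. For the others that changed sign they ran for E2f1 -0.0241 to 0.077, Kif11 -0.20 to 0.10, Kif20a -0.33 to 0.0656, Mcm3 -0.00556 to 0.12, Mcm4 -0.0773 to 0.0456, Mcm5 -0.00666 to 0.0971, Mki67 -0.41 to 0.34, Pcna -0.0589 to 0.0311, Rrm2 -0.0449 to 0.0552, Top2a -0.17 to 0.14, Tpx2 -0.21 to 0.10, Ube2c -0.18 to 0.0248. Array weights changed the sign of Mki67 (0.0688), Rrm2 (0.0011), Top2a (0.0012) and Aurkb (0.0059), and quantile normalization that of E2f1 (-0.0073). Their cause was not tested. The number of genes highest in control replicate 4 was 22, and 24 with quantile normalization or centring, 10 of 16 with dim genes left out, and 16 of the 26 above the median of the negative control rows, a subset chosen after seeing the data.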
